A study of Mus musculus with 9 samples.

Results

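The genes described here encode the proteins of the cytosolic ribosome and of the mitochondrial ribosome. Members were all probe sets with 1 gene symbol that began with Rpl, Rps, Mrpl or Mrps and a digit, plus Rplp0, Rplp2 and Rpsa. S6 kinase genes (Rps6k), Rps27l and pseudogene symbols were left out. This gave 122 of the 17731 genes with a single symbol, 46 of them cytosolic and 76 mitochondrial, each with 1 probe set. By the rule the cytosolic class includes Rps19bp1, which encodes a protein that binds RPS19 and is no ribosome subunit. It also includes 5 paralogs of standard subunits: Rpl22l1, Rpl7l1, Rpl39l, Rpl3l and Rps4l. The mitochondrial class includes Mrps36, whose product is now known as a subunit of the oxoglutarate dehydrogenase complex.

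The samples were 9 Affymetrix mouse arrays in 3 groups of 3. IDH1mut cells carried a retroviral vector with mutant IDH1, IDH1wt cells one with wild-type IDH1, and CTL cells the empty EGFP vector. Isocitrate dehydrogenase 1 is a cytosolic enzyme whose cancer mutants turn 2-oxoglutarate into 2-hydroxyglutarate; the labels do not name the mutation. All 3 groups were bone marrow cells of C57BL6 mice, immortalised with HoxA9, transplanted into irradiated recipients and sorted for green fluorescence 4 weeks later. A vector-driven gene at unstated copy number limits the groups as a model, and neither integration sites nor clonality were analysed here. The labels do not say whether replicates came from separate mice, so p-values measure the spread between these samples, which may be technical. In bulk RNA, fewer cells of a type and less of a transcript per cell cannot be told apart.

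Cytosolic ribosomes translate the messages of the nuclear genome, and their proteins are made in near-equal numbers in every growing cell. Many of their messages begin with a terminal oligopyrimidine (TOP) tract, through which mTOR signalling sets their translation. Mitochondrial ribosomes descend from those of bacteria and translate only the few membrane subunits of the respiratory chain and ATP synthase that mitochondrial DNA encodes. All of their proteins are made in the cytosol from nuclear genes and imported. In blood formation the cytosolic set is known from Diamond-Blackfan anemia, in which loss of 1 copy of a ribosomal protein gene impairs red cell production.

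The starts of the genes were read before any expression value is considered, and no difference between the classes was tested. RefSeq promoters (GRCm38.p6, 250 bases before to 50 after the annotated start) were matched by gene ID for 107 of the 122 members, 40 cytosolic genes with 47 promoters and 67 mitochondrial genes with 73. A C at the annotated start followed by at least 4 bases that are each C or T, read on the transcribed strand, stood in 8 of 47 cytosolic promoters (17%) and 0 of 73 mitochondrial ones. The same letters stood in 2.36% of 17601 promoters of measured genes. Annotated starts can be off by some bases, so a run of at least 7 such bases beginning with C was also searched from 10 bases before to 20 after the start. It was found in 40.4% of cytosolic, 9.59% of mitochondrial and 14.2% of all measured genes' promoters. The following starts are shown because these genes changed below; each runs from 10 bases before to 20 after the annotated start, with the whole pyrimidine run in capitals.

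Rps6 (chr4:86857348-86857377, minus strand): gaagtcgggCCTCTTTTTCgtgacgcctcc

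Rps18 (chr17:33955646-33955675, minus strand): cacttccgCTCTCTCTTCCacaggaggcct

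Rpl22l1 (chr3:28805498-28805527, plus strand): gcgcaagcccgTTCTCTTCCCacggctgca

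Rps9 (chr7:3704031-3704060, plus strand): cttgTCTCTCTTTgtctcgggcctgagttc

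Rpl12 (chr2:32961702-32961731, plus strand): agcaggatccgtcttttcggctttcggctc

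The last of these, Rpl12, is printed for contrast: its run of 7 in this window begins with T, so it did not meet the rule, and it is left in lower case. Rpl27, Rpl11, Rpl7l1 and Rps19bp1, which fell, and Rps25, which rose, also had no such run and are not printed. Among cytosolic genes with a promoter, the run was found in 4 of the 8 that fell in IDH1mut against CTL. It was found in 1 of the 3 that rose and in 14 of the 29 that did not pass. The classes shared another element. The ETS family word CCGGAAG, on either strand, was present in 36.2% of cytosolic and 34.2% of mitochondrial promoters, against 13.1% of those of measured genes. Examples from mitochondrial genes follow, 40 bases each, with the word in capitals.

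Mrpl27 (chr11:94653720-94653759, plus strand): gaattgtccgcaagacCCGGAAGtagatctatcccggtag

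Mrps27 (chr13:99344722-99344761, plus strand): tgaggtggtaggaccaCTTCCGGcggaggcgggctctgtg

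The NRF1 word, GCGCA and GCGC with any base between them, also on both strands, occurred in 12.8% of cytosolic, 16.4% of mitochondrial and 7.53% of measured genes' promoters. The YY1 word AAGATGGCG occurred in 6.38% of cytosolic, 11% of mitochondrial and 2.14% of measured genes' promoters. The E-box CACGTG, the word bound by MYC and MAX, was found in 10.6% of cytosolic and 9.59% of mitochondrial promoters, near its share of 8.82% in measured genes. No promoter held the ETS and YY1 words overlapping each other. Among mitochondrial genes with a promoter, the ETS word was present in 5 of the 17 that fell in IDH1mut against CTL and in 19 of the 49 that did not pass. A match describes letters only and is no evidence of binding.

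In IDH1mut against CTL, genes of both ribosomes mostly had small values under 0, and the largest changes were rises of the cytosolic genes Rps9 and Rpl12. Mitochondrial ribosomal protein genes fell in 21 of 76 cases (27.6%) and rose in 2, Mrpl15 and Mrpl52. Cytosolic genes fell in 8 of 46 (17.4%) and rose in 3, Rps9, Rpl12 and Rps25. Over all 17731 genes, 20.7% passed, 10.6% lower and 10.1% higher; "rose", "fell" and "passed" here mean an adjusted p under 0.05 in the limma fit across all genes. The median log2 fold change was -0.24 for mitochondrial and -0.18 for cytosolic members, against -0.04 for all genes. Values under 0 were found in 69 of 76 mitochondrial members (90.8%) and 37 of 46 cytosolic members (80.4%), against 57.3% of all genes.

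Probe set level bears on these counts. Among genes above the median level of all genes, 18.1% fell and 17% rose in this comparison. All 21 mitochondrial falls were among the 70 members above that level, and both mitochondrial rises were among the 6 below it. All 11 cytosolic calls were among the 36 members above it. The cytosolic falls, 8 of 36 there, lay near the background for genes of such level. With only genes above that level fitted, 21 cytosolic and 34 mitochondrial members passed in either direction. The shares of 18.1% and 17% come from the fit of all genes and are no background for these counts. The share that passed in the filtered fit is not given here. Leaving out 1 array moved the mitochondrial count most, to 10 without CTL replicate 1, 8 without CTL replicate 3 and 10 without IDH1mut replicate 3.

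**Figure D1:**
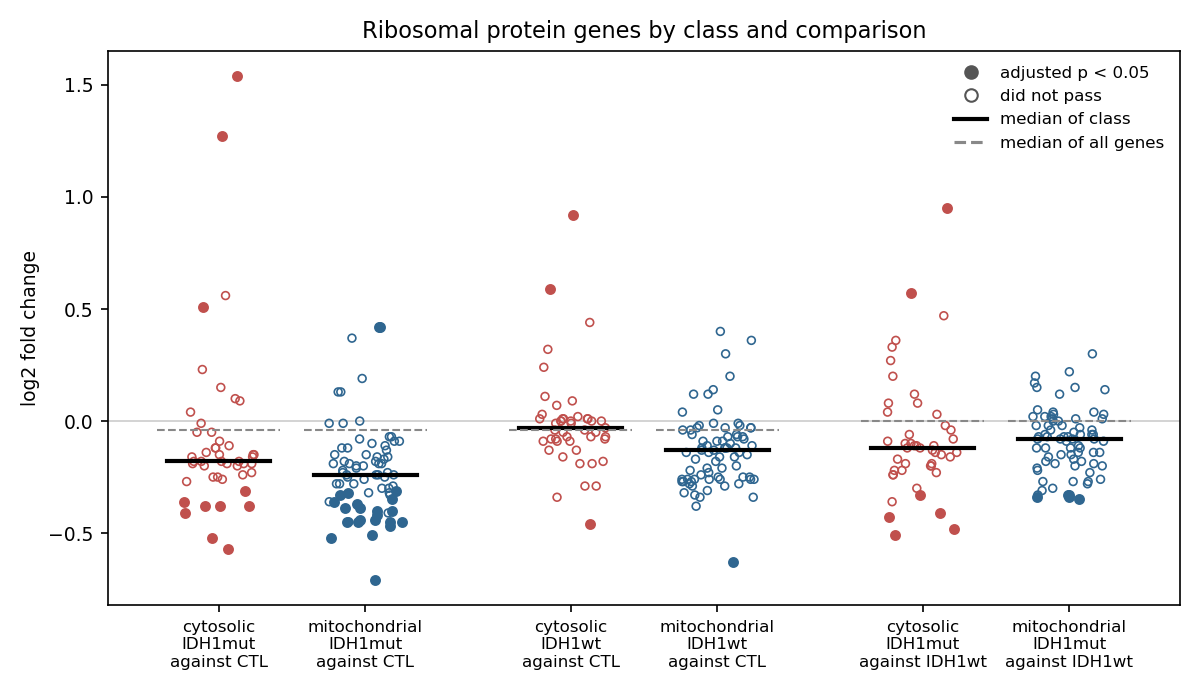
Log2 fold change (vertical axis) of each cytosolic (red) and mitochondrial (blue) ribosomal protein gene in the 3 comparisons; filled points passed at adjusted p under 0.05, black bars are class medians and dashed lines the median of all genes. In IDH1mut against CTL both class medians (-0.18 and -0.24) lie under that of all genes (-0.04), and Rps9 and Rpl12 stand above the rest.

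The largest change of any member was that of Rps9, a small subunit protein. Rps9 read 7.20, 7.17 and 7.38 on the log2 scale in the IDH1mut arrays, 6.53, 6.21 and 6.15 in the IDH1wt arrays, and 5.56, 5.68 and 5.89 in the CTL arrays. No value of any group overlapped those of another, and the IDH1wt arrays lay between the other groups. Rps9 was 2.91-fold higher in IDH1mut than in CTL (1.54 ± 0.13 on the log2 scale; adjusted p = 3.05e-05, limma). Here and below the error of a change is its standard error from limma, with 3 arrays a group.

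Rpl12, which sits at the base of the large subunit's stalk, read 6.27, 6.63 and 6.69 in IDH1mut and 4.77, 5.56 and 5.45 in CTL. The groups did not overlap, and the lowest CTL array was replicate 1. It was 2.41-fold higher (1.27 ± 0.19; adjusted p = 0.001, limma). Rps25, a small subunit protein known for its part in internal initiation on viral messages, read 9.18, 9.16 and 9.29 in IDH1mut and 8.72, 8.58 and 8.79 in CTL. Its rise was 0.51 ± 0.09 on the log2 scale (adjusted p = 0.00292, limma). The calls of these 3 genes held on leaving out any 1 of the 6 arrays compared. Whether the Rps9 and Rpl12 probe sets read the main transcript of their genes was not tested.

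Of the cytosolic genes that fell, Rpl27, a large subunit protein, changed most. It read 10.90, 10.85 and 10.71 in IDH1mut and 11.40, 11.24 and 11.53 in CTL, with every IDH1mut array lower, and was 1.49-fold lower (-0.57 ± 0.10; adjusted p = 0.00232, limma). Rps19, the gene most often mutated in Diamond-Blackfan anemia, read 12.60, 12.58 and 12.54 in IDH1mut and 13.00, 12.97 and 12.98 in CTL. That 1.33-fold difference was small but wide of the spread in both groups (-0.41 ± 0.08; adjusted p = 0.00423, limma). Rps18, of the small subunit's head, fell by 0.38 ± 0.08 on the log2 scale, Rps6, the subunit that S6 kinases phosphorylate, by 0.38 ± 0.10, and Rpl11, which with Rpl5 can bind MDM2, by 0.36 ± 0.09. Rps19bp1 fell by 0.31 ± 0.09. The calls of Rpl27, Rps19 and Rps18 held without any 1 array, while that of Rpl11 ended when CTL replicate 3 was left out (adjusted p = 0.0545). Rps6 lost it without any 1 of 3 arrays (adjusted p up to 0.0854) and Rps19bp1 without any 1 of 5 (up to 0.0984).

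Among the paralogs, Rpl22l1 fell and its partner Rpl22 did not pass. RPL22 is known in mice to hold down the message of its paralog. Rpl22l1 read 11.32, 11.37 and 11.23 in IDH1mut and 11.90, 11.74 and 11.84 in CTL, without overlap (-0.52 ± 0.10; adjusted p = 0.00346, limma). Rpl22 read 7.44, 7.57 and 7.70 in IDH1mut and 7.66, 7.85 and 7.77 in CTL, with overlap (-0.19 ± 0.11, adjusted p = 0.256, limma). Over the 9 arrays the Rpl22 probe set averaged 7.8 and that of Rpl22l1 11.62. Whether the Rpl22 probe set reads the main transcript of its gene was not tested. Rpl7l1, a paralog tied to assembly of the large subunit, fell by 0.38 ± 0.10 (adjusted p = 0.0154, limma), with a call lost without CTL replicate 1 (0.0605) or IDH1mut replicate 3. Rpl7 itself did not pass (-0.18 ± 0.09). Rpl39l, Rpl3l and Rps4l read means over the 9 arrays of 2.61, 3.57 and 3.20, below the median of every array, and did not pass (-0.05 ± 0.15, 0.15 ± 0.11 and -0.27 ± 0.20).

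The other 35 of 46 cytosolic genes did not pass. The stalk genes Rplp0 (-0.18 ± 0.08; adjusted p = 0.146, limma) and Rplp2 (-0.19 ± 0.08; 0.143) were among them, as were Rpsa (-0.18 ± 0.08; 0.148), which encodes a small subunit protein also described as a laminin receptor, and the anemia genes Rps14 (-0.18 ± 0.08; 0.156) and Rps26 (-0.19 ± 0.08; 0.131). In each of these 5 genes all IDH1mut arrays lay below all CTL arrays, as for Rps26 at 12.74, 12.71 and 12.77 in IDH1mut against 12.92, 12.91 and 12.97 in CTL. This held for 27 of 46 cytosolic and 47 of 76 mitochondrial members, against 21.5% of all genes and 31.9% of those above the median level.

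The brightest probe sets shared a sign, but few of them passed. Of 46 cytosolic members, 22 had a mean above 12 on the log2 scale, a level chosen after the values were seen. All 22 had a log2 fold change under 0, between -0.41 and -0.05, with a median of -0.19, and only 3 passed: Rps19, Rps18 and Rpl11. The 59 genes above 12 that are no members had a median of 0.13, with 20 values under 0, 17 rises and 11 falls. Falls made up 13.6% of the 22 members, 18.6% of these 59 genes and 20.8% of the 24 cytosolic members up to 12. At the other end, 10 cytosolic members read below the median level, among them the standard genes Rps16 (2.75), Rpl35 (2.96), Rps24 (3.63), Rps3 (3.97), Rps4x (3.98), Rps20 (4.07) and Rps10 (4.65). Their products are needed in every cell, and what these probe sets read was not tested. None of the 10 passed, and their median log2 fold change was 0.01.

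**Figure D2:**
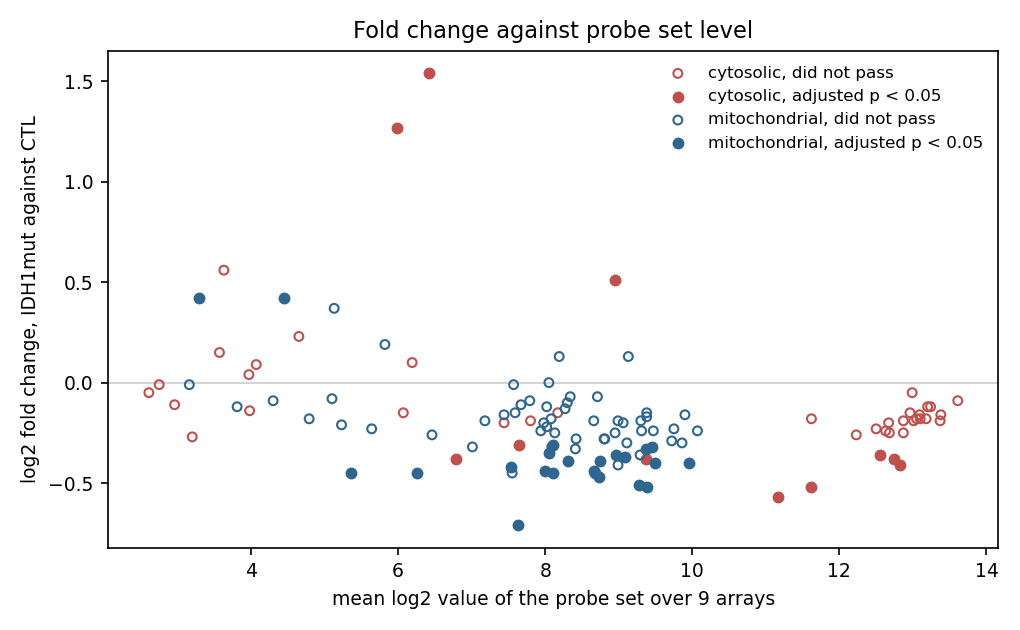
Log2 fold change in IDH1mut against CTL (vertical axis) against the mean log2 value of the probe set over 9 arrays (horizontal axis), for cytosolic (red) and mitochondrial (blue) members; filled points passed. The 22 cytosolic members above 12 form a band between -0.41 and -0.05, while Rps9 and Rpl12 stand high at means of 6.42 and 5.99.

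A further 30 probe sets carried several symbols, a ribosomal protein gene beside 1 or more others, mostly pseudogenes, predicted genes or close copies, and were not members. They were fitted with all 20877 probe sets, of which 9.45% fell and 9.44% rose in IDH1mut against CTL. Of the 30, 10 fell and 2 rose, 24 were under 0, and the median was -0.18. The largest fall was that of the Rpl24 probe set (-0.80 ± 0.14; adjusted p = 0.00215, limma), and the probe set shared by Rpl36a and Rpl36al fell (-0.40 ± 0.09). Another that these genes share with Dnaaf2, which is unrelated to them, fell too (-0.47 ± 0.09). The Rpl30 (0.67 ± 0.12) and Rps15a (0.41 ± 0.11) probe sets rose. Rpl5 (-0.12 ± 0.10), Rpl3 (-0.07 ± 0.08), Rpl10 (-0.13 ± 0.08), Rpl39 (-0.15 ± 0.08) and Rplp1 (-0.19 ± 0.08) did not pass. In IDH1wt against CTL 1 of the 30 rose and 0 fell, against 1.99% and 0.709% of all probe sets, and in IDH1mut against IDH1wt 0 rose and 5 fell, against 5.88% and 6.25%. Signals of the genes that share a probe set cannot be told apart, and 9 member probe sets ending in x_at have probes that may bind other sequences too.

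Of the mitochondrial genes, Mrpl19, a large subunit protein with a bacterial counterpart, fell most. Mrpl19 read 7.34, 7.47 and 7.28 in IDH1mut, 7.77, 7.35 and 7.22 in IDH1wt, and 8.08, 7.89 and 8.27 in CTL. The IDH1mut and IDH1wt arrays overlapped each other, and both groups lay below all CTL arrays. It was 1.64-fold lower in IDH1mut than in CTL (-0.71 ± 0.15; adjusted p = 0.00535, limma).

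Mrps33, a small subunit protein without a bacterial counterpart, read 9.18, 9.10 and 8.98 in IDH1mut and 9.60, 9.55 and 9.68 in CTL, with no overlap (-0.52 ± 0.10; adjusted p = 0.00401, limma). Mrpl58, a peptidyl-tRNA hydrolase built into the large subunit, read 9.16, 9.03 and 8.84 in IDH1mut and 9.60, 9.40 and 9.57 in CTL (-0.51 ± 0.11; adjusted p = 0.00758, limma). Mrpl2, of the large subunit's core, fell by 0.44 ± 0.09, and Mrpl39 by 0.40 ± 0.09. These 4 genes, Mrpl19 and Mrps27 (-0.45 ± 0.11), a small subunit protein with RNA-binding repeats, were the only mitochondrial calls that held without any 1 of the 6 arrays. The other 17 of 23 were lost at least once.

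Mrpl12, which also binds the mitochondrial RNA polymerase, read 8.58, 8.56 and 8.26 in IDH1mut and 9.0, 8.80 and 8.96 in CTL (-0.45 ± 0.11; adjusted p = 0.0163, limma). Its groups did not overlap, and its call was lost without any 1 of 3 arrays (up to 0.0696). The large subunit genes Mrpl13 (-0.47 ± 0.15), Mrpl14 (-0.45 ± 0.13) and Mrpl27 (-0.45 ± 0.13) fell too, each with a call lost without IDH1mut replicate 3 among others (up to 0.154, 0.095 and 0.101). Mrps36 fell by 0.39 ± 0.11, with a call lost without any 1 of 4 arrays (up to 0.103). Of the 3 Mrps18 paralogs, which occupy different places in the mitochondrial ribosome, none passed: Mrps18a stood at -0.22 ± 0.11, Mrps18b at -0.01 ± 0.08 and Mrps18c at -0.24 ± 0.10.

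The rises of Mrpl52 and Mrpl15 came from dim probe sets. Mrpl52 read 3.56, 3.42 and 3.54 in IDH1mut and 3.15, 3.10 and 2.99 in CTL, without overlap and below the array medians of 4.65 to 4.72 (0.42 ± 0.10; adjusted p = 0.0123, limma). Its call was lost without CTL replicate 3 (0.0534), and that of Mrpl15 (0.42 ± 0.13) without any 1 of 5 arrays (up to 0.135).

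The falls were spread over the mitochondrial ribosome. They took in 14 of 49 large subunit genes and 6 of 26 small subunit genes, with medians of -0.23 and -0.24, besides Mrps36. As grouped here, genes listed with a bacterial counterpart fell in 11 of 45 cases (median -0.25) and those listed as mitochondria-specific in 9 of 30 (median -0.21). The first list counts Mrpl55, whose place there is uncertain and which did not pass (-0.11 ± 0.10). For the cytosolic ribosome, 4 of 24 large subunit genes and 3 of 21 small subunit genes fell, with medians of -0.19 and -0.14. Over all genes 10.6% fell, and 18.1% of those above the median level. No difference between these subsets was tested.

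**Figure D3:**
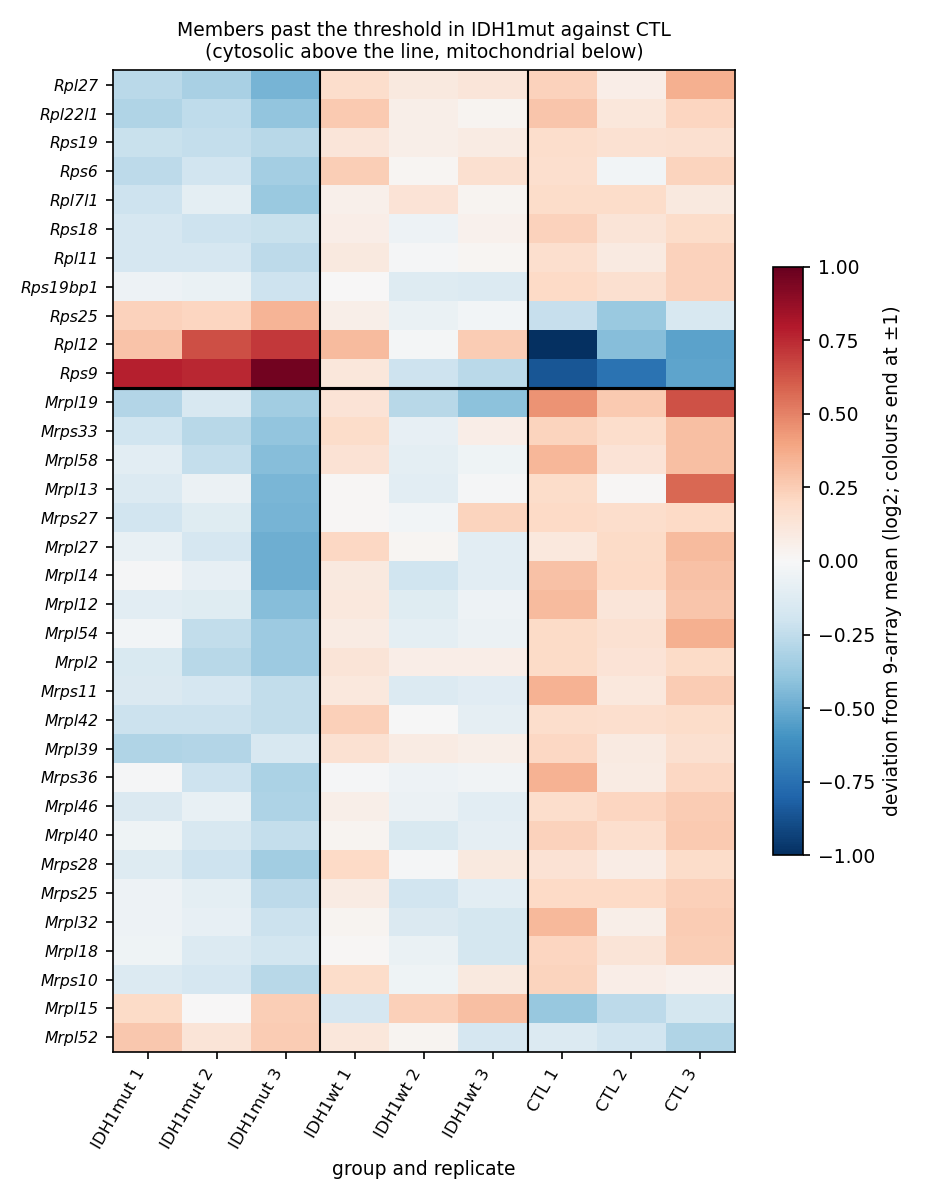
Deviation of each gene's log2 value from its mean over the 9 arrays (colour, ending at 1 in either direction) for the 34 members that passed in IDH1mut against CTL, cytosolic above the heavy line and mitochondrial below it. Columns are the IDH1mut, IDH1wt and CTL replicates; IDH1mut replicate 3 is the lowest array for 19 of the 23 mitochondrial genes, and Rps9, Rpl12, Rps25, Mrpl15 and Mrpl52 run the other way.

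IDH1wt was compared with the same CTL arrays, so the comparisons are not independent. In IDH1wt against CTL, 2 cytosolic members rose and 1 fell of 46, and of 76 mitochondrial members 0 rose and 1 fell; over all genes 1.62% rose and 0.711% fell, 2.33% in all. Among genes above the median level, 2.64% rose and 0.914% fell. Rpl12 rose (0.92 ± 0.19; adjusted p = 0.0334, limma), at 6.30, 5.97 and 6.24 in IDH1wt against 4.77, 5.56 and 5.45 in CTL. Rps9 rose (0.59 ± 0.13; adjusted p = 0.0357, limma). Rpl41, the shortest protein of the large subunit, fell (-0.46 ± 0.10; 0.0382), as did Mrpl19 (-0.63 ± 0.15; 0.0491). Each of these 4 calls was lost on leaving out at least 5 of the 6 single arrays, at adjusted p up to 0.174.

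The class medians of the 2 ribosomes differed in this comparison. The cytosolic median log2 fold change was -0.03, next to -0.04 for all genes, with 30 of 46 values under 0. The mitochondrial median was -0.13, with 67 of 76 values under 0 (88.2%, against 58.5% of all genes). At an unadjusted p under 0.05, 22 mitochondrial members were lower and 1 higher. Over all 17731 genes 1556 were lower and 1461 higher, and of the 8865 above the median level 897 were lower and 1091 higher. Single genes of both classes lay on either side of 0, cytosolic ones between -0.46 and 0.92 and mitochondrial ones between -0.63 and 0.40. Mrpl40 stood at -0.29 ± 0.09 (adjusted p = 0.142, limma) and Mrpl32 at -0.31 ± 0.10 (0.164), while Mrps2 stood at 0.14 ± 0.10 (0.513). Among cytosolic genes Rpl27 stood at -0.09 ± 0.10 (0.712) and Rpl13a, a large subunit protein, at -0.34 ± 0.11 (0.147). All IDH1wt arrays lay below all CTL arrays in 26 of 76 mitochondrial and 10 of 46 cytosolic members, against 12.9% of all genes and 15.6% of those above the median level.

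Per array, the median deviation of cytosolic members from their 9-array means was -0.09, -0.10 and -0.11 in IDH1mut, 0.08, 0.00 and 0.03 in IDH1wt, and 0.07, 0.05 and 0.10 in CTL. The IDH1mut arrays lay apart, and the other groups overlapped. For mitochondrial members it was -0.03, -0.09 and -0.23 in IDH1mut, 0.08, -0.09 and -0.05 in IDH1wt, and 0.15, 0.08 and 0.18 in CTL. Here IDH1mut and IDH1wt overlapped, IDH1mut replicate 3 was lowest, and IDH1wt replicate 1 equalled the lowest CTL array to 2 decimals. The mitochondrial minus the cytosolic median was 0.06, 0.02 and -0.11 in IDH1mut, 0.00, -0.10 and -0.08 in IDH1wt, and 0.07, 0.03 and 0.08 in CTL. All 3 IDH1wt values lay below all CTL values, whereas those of IDH1mut spanned both. No p is given for these scores, since the members were chosen with results known.

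**Figure D4:**
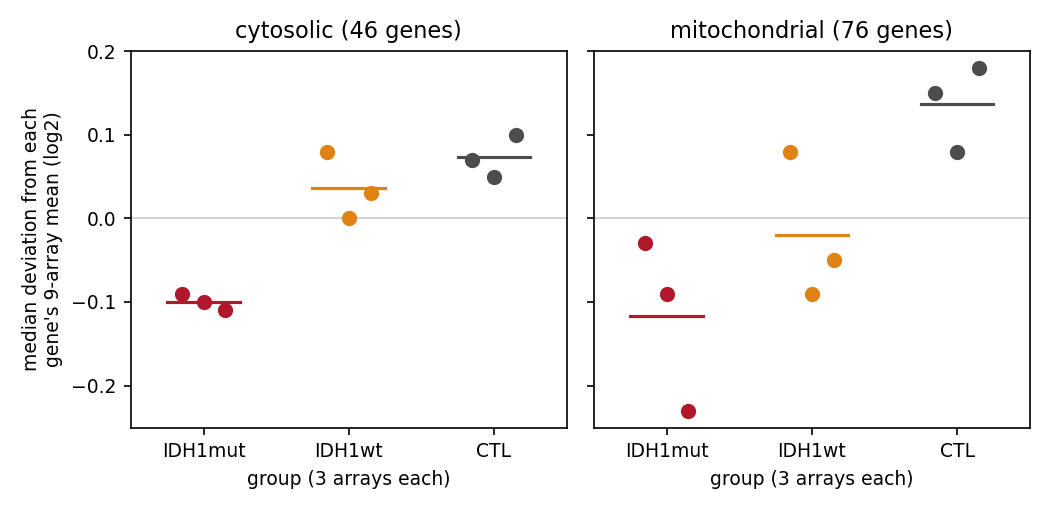
Median deviation of the members from their 9-array means (vertical axis, log2) on each array of IDH1mut, IDH1wt and CTL, for 46 cytosolic (left) and 76 mitochondrial genes (right); bars are group means. The cytosolic IDH1mut points sit at -0.09 to -0.11 below both other groups, and the mitochondrial IDH1mut and IDH1wt points overlap.

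The comparison of IDH1mut with IDH1wt tests the difference between the vectors directly. Of 46 cytosolic members 2 rose and 5 fell, and of 76 mitochondrial members 0 rose and 5 fell, against 6.54% rises, 6.78% falls and 13.3% in all over all genes. At an unadjusted p under 0.05, 2 mitochondrial members were higher and 15 lower. Over all 17731 genes 2283 were higher and 2447 lower at that level. Of the 8865 genes above the median level 1631 were higher and 1952 lower, beside 1 and 15 of the 70 mitochondrial members there. The falls made up 10.9% of cytosolic and 6.58% of mitochondrial members. Among genes above the median level 10.8% rose and 12% fell, so the mitochondrial falls, 5 of 70 members there, lay below the background and the cytosolic ones, 5 of 36, near it. Medians were -0.12 and -0.08, against 0 for all genes.

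Rps9 rose (0.95 ± 0.13; adjusted p = 0.000951, limma), so its level in IDH1mut exceeded that in IDH1wt as well as in CTL. Rpl41 rose too (0.57 ± 0.10; adjusted p = 0.00448, limma), at 6.35, 6.46 and 6.41 in IDH1mut against 5.88, 5.77 and 5.87 in IDH1wt; CTL read 6.47, 6.15 and 6.30, and IDH1mut did not pass against it (0.10 ± 0.10). What the Rpl41 probe set reads was not tested. Rpl12 did not pass (0.36 ± 0.19; adjusted p = 0.275, limma), with overlapping arrays.

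Rpl22 fell (-0.51 ± 0.11; adjusted p = 0.0104, limma), at 7.44, 7.57 and 7.70 in IDH1mut against 8.21, 7.92 and 8.12 in IDH1wt. Its paralog Rpl22l1 also fell (-0.43 ± 0.10; 0.0151), as did Rpl27 (-0.48 ± 0.10; 0.00954), Rps6 (-0.41 ± 0.10; 0.0228) and Rps19 (-0.33 ± 0.08; 0.0203). Of the 7 cytosolic calls, those of Rps9, Rpl41, Rpl27 and Rpl22 held without any 1 array. The mitochondrial falls were Mrpl2 (-0.35 ± 0.09; 0.0226), Mrpl39 (-0.34 ± 0.09; 0.0257), Mrps33 (-0.34 ± 0.10; 0.0469), Mrps2 (-0.33 ± 0.10; 0.0438) and Mrps28 (-0.33 ± 0.10; 0.0449). Each of these 5 was lost without at least 4 of the 6 single arrays, at adjusted p up to 0.155. Mrpl19 did not pass (-0.08 ± 0.15; 0.781).

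**Figure D5:**
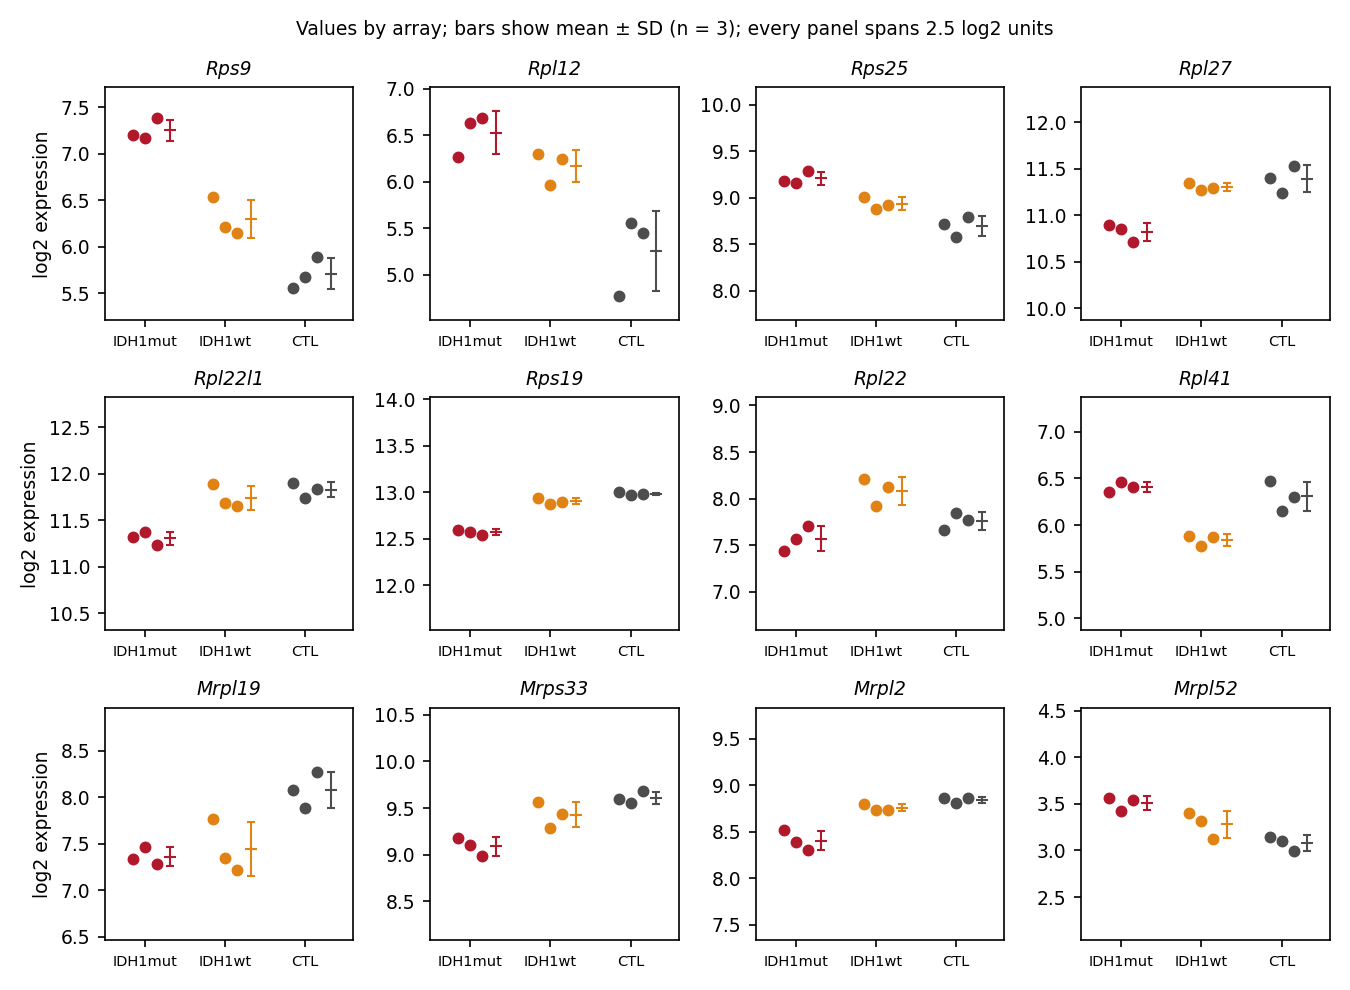
Log2 expression (vertical axis, 2.5 units in every panel) of 12 members on each IDH1mut, IDH1wt and CTL array, with mean ± SD (n = 3) beside the points. Rps9 steps down across the groups as drawn, Rpl22 is highest and Rpl41 lowest in IDH1wt, though Rpl22 did not pass there against CTL (0.32 ± 0.11, adjusted p = 0.165, limma), and Mrpl19 is lower in both IDH1 groups than in CTL.

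The machinery around both ribosomes was read from 5 lists. Their counts in IDH1mut against CTL stand against 10.6% falls and 10.1% rises over all genes (18.1% and 17% above the median level). In IDH1mut against IDH1wt the shares were 6.78% falls and 6.54% rises (12% and 10.8%). In IDH1wt against CTL, 1461 of all 17731 genes were higher and 1556 lower at an unadjusted p under 0.05. Ribosome biogenesis genes, which make and assemble the cytosolic subunits in the nucleolus, fell in 18 of 77 cases and rose in 4 in IDH1mut against CTL (median -0.20). Against IDH1wt they fell in 18 and rose in 2 (median -0.17), and in IDH1wt against CTL 0 passed in limma (median -0.01), with 5 higher and 4 lower at an unadjusted p under 0.05. Tcof1, the nucleolar factor treacle, averaged 6.90 ± 0.13 in IDH1mut, 7.63 ± 0.11 in IDH1wt and 7.73 ± 0.03 in CTL (SD, n = 3 each; -0.83 ± 0.10, SE, IDH1mut against CTL, adjusted p = 0.000249, limma). Mybbp1a (-0.76 ± 0.12) and Utp6 (-0.73 ± 0.14), both nucleolar, fell with it.

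Cytosolic translation factors fell in 14 of 44 cases and rose in 3 in IDH1mut against CTL (median -0.17; 10.6% and 10.1% of all genes), fell in 12 and rose in 2 against IDH1wt (median -0.15; 6.78% and 6.54% of all genes), and 0 passed in IDH1wt against CTL (median 0.02; 4 higher and 4 lower at an unadjusted p under 0.05). Eif3c (-1.10 ± 0.22), an initiation factor subunit, and Pabpc1 (-0.96 ± 0.15), the poly(A) binding protein, fell. Eef2, the elongation factor that moves the ribosome along, averaged 11.82 ± 0.09 in IDH1mut, 12.38 ± 0.04 in IDH1wt and 12.25 ± 0.05 in CTL, and fell against both. Btf3 rose (0.76 ± 0.16) from a dim probe set averaging 4.73 ± 0.17 in IDH1mut and 3.97 ± 0.20 in CTL.

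On the mitochondrial side, translation and mitochondrial transcription factors fell in 8 of 43 cases and rose in 0 in IDH1mut against CTL (median -0.11), with 3 falls and 0 rises against IDH1wt (median -0.07). The 8 falls (18.6%) stand against 10.6% of all genes and 18.1% of those above the median level. The 3 falls against IDH1wt (6.98%) stand against 6.78% and 12%. The 8 falls included the tRNA synthetases Ears2 (-0.73 ± 0.10) and Yars2 (-0.50 ± 0.11) and the mitochondrial RNA polymerase Polrmt (-0.51 ± 0.09). Nuclear genes of oxidative phosphorylation fell in 18 of 71 and rose in 6 (median -0.20), with Ndufb2 of complex I at -0.81 ± 0.12, and with Cox7c (0.98 ± 0.14) and Atp5c1 (0.87 ± 0.12) among the rises. Against IDH1wt they fell in 7 and rose in 3 (median -0.08). In IDH1wt against CTL, 0 genes of either list passed in limma, with medians of -0.05 and -0.11. At an unadjusted p under 0.05, 0 translation genes were higher and 5 lower there, and 6 oxidative phosphorylation genes were higher and 10 lower. Over all 17731 genes 1461 were higher and 1556 lower, and of the 8865 above the median level 1091 were higher and 897 lower.

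Regulators of ribosome and mitochondrial genes fell in 6 of 18 cases and rose in 4 in IDH1mut against CTL, where 10.6% of all genes fell and 10.1% rose. Myc, which drives ribosome biogenesis, averaged 8.33 ± 0.13 in IDH1mut, 8.70 ± 0.09 in IDH1wt and 8.80 ± 0.05 in CTL, and fell against CTL (-0.47 ± 0.10; adjusted p = 0.00613, limma) and IDH1wt (-0.37 ± 0.10; 0.0281). Max, its partner, rose (0.65 ± 0.08; 0.000376), as did Mxd1 (0.65 ± 0.13; 0.00482), which competes with MYC for it. Mxd4, of the same family as Mxd1, fell (-0.48 ± 0.12, adjusted p = 0.0123, limma). It stood at -0.45 ± 0.12 in IDH1wt against CTL (adjusted p = 0.0695, limma) and at -0.03 ± 0.12 in IDH1mut against IDH1wt. Mycn, a relative of Myc, rose in IDH1mut against CTL (0.55 ± 0.14, adjusted p = 0.0184, limma) on a dim probe set. Ppargc1b, a coactivator of mitochondrial biogenesis, averaged 5.45 ± 0.22 in IDH1mut, 6.18 ± 0.04 in IDH1wt and 6.05 ± 0.18 in CTL and fell against both. Ppargc1a (-1.28 ± 0.15) fell as well, on a probe set that read below the array medians in all groups.

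Markers of 8 cell types were read in the same arrays, beside 10.1% rises and 10.6% falls over all genes in IDH1mut against CTL. Of 7 neutrophil maturation markers 4 rose and 0 fell, while Camp, Ngp and S100a8 did not pass. Their summed intensity on a log2 scale was 16.19 to 16.24 in IDH1mut, 15.92 to 15.94 in IDH1wt and 15.89 to 15.96 in CTL. All 4 primary granule markers, of earlier cells of that lineage, fell, at sums of 14.07 to 14.19 in IDH1mut, 14.85 to 14.96 in IDH1wt and 14.93 to 14.99 in CTL. All 7 erythroid markers rose, at 11.24 to 11.55 in IDH1mut, 9.40 to 11.36 in IDH1wt and 9.63 to 9.90 in CTL. Of 6 B cell markers 2 rose and 4 did not pass, at 10.05 to 11.46 in IDH1mut, 8.15 to 9.28 in IDH1wt and 9.12 to 10.18 in CTL. In IDH1mut against IDH1wt, 4 of 7 neutrophil maturation markers rose and all 4 primary granule markers fell. There 0 of 7 erythroid markers passed, and 2 of 6 B cell markers rose. Over all genes 6.54% rose and 6.78% fell in that comparison, and 10.8% and 12% of those above the median level.

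Of 4 monocyte and macrophage markers, Cd14 fell (-1.48 ± 0.18) and 3 did not pass against CTL. Against IDH1wt 3 of 4 fell, where 6.78% of all genes did. Their sums were 10.56 to 11.17 in IDH1mut, 11.21 to 11.27 in IDH1wt and 11.13 to 11.25 in CTL. In IDH1mut against CTL, 1 of 4 T and NK cell markers rose, 1 of 5 megakaryocyte markers fell, and of 5 stromal and endothelial markers 1 rose and 1 fell. Against IDH1wt, 1 of 4 T and NK cell markers rose. There 1 of 5 megakaryocyte markers rose and 1 fell, as did 1 each of 5 stromal and endothelial markers. Sums for T and NK cells were 7.07 to 7.51 in IDH1mut, 6.70 to 6.87 in IDH1wt and 6.85 to 7.05 in CTL. Those for megakaryocytes were 8.93 to 9.23 in IDH1mut, 8.95 to 9.19 in IDH1wt and 8.81 to 9.37 in CTL. Those for stroma and endothelium were 7.17 to 7.48 in IDH1mut, 7.67 to 7.80 in IDH1wt and 7.47 to 7.63 in CTL. RMA values have no zero, so none of these markers can be called absent. The part of these cell types in the ribosomal protein differences was not tested.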

How the data were processed

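Expression was measured on 9 arrays, 3 each for IDH1mut, IDH1wt and CTL. The authors deposited log2 values for each probe set, and the submitters' processing notes name RMA without a version; no other step is given in the sources used here. The values ranged from 1.72 to 14.17, with array medians of 4.65 to 4.72. Arrays have no read depth, and their number limits the precision. Of 20877 probe sets, the platform's annotation gave 1 gene symbol to 17815, several to 244 and none to 2818. Where a gene had several probe sets, the one of highest mean was used.

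Group means were fitted over the 9 arrays together (limma 3.58.1, R 4.3.3), and 3 contrasts were tested two-sided, with Benjamini-Hochberg adjustment over 17731 genes and a threshold of 0.05. Changes are differences between group means of log2 values, with their moderated standard errors. Members were counted beside the share of all genes called, with no test of a list. The procedure was tested on simulated data.

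Named genes were up to 8 members per class and contrast with the largest changes among calls whose arrays did not overlap, up to 3 per pathway list, and 28 listed genes (Myc and ribosomal protein genes such as paralog pairs, stalk and anemia genes), of which 19 had a probe set of their own. Other named genes were chosen after their values were seen. Members and lists were chosen with earlier results of these data known. Alternatives were another probe set rule, a level filter, other normalisations, other models of the spread, a replicate block, and fewer arrays.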

Additional observations from a re-analysis of the deposited data

How the results depend on the processing

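Both class medians of log2 fold change stayed below 0 under every alternative run in IDH1mut against CTL and against IDH1wt. Several of these could not have moved a median. The trend, unmoderated variances, the 6 arrays compared and the replicate block leave each fold change as it is. Each member had 1 probe set, so another probe set rule could not move it either. Normalisation, array weights, the level filter, added probe sets and left-out arrays could. Leaving out 1 array each, the cytosolic median was -0.18 to -0.16 against CTL. With quantile normalisation repeated it was -0.12 against CTL and -0.09 against IDH1wt. Counts of calls depended more on the settings. For IDH1mut against CTL the 11 cytosolic calls became 21 with only genes above the median level, 27 with an intensity trend and robust variances, 26 with unmoderated variances and 23 with the several-symbol probe sets, an alternative chosen after seeing the data. The 23 mitochondrial calls became 37 with the trend, and 8 to 24 without 1 array. For IDH1mut against IDH1wt the 7 cytosolic calls became 14, 18, 20 and 12 under those 4 settings in that order, and 4 to 7 without 1 array. The 5 mitochondrial calls became 11 above the median level, 3 with centred arrays, 0 with only the 6 arrays compared, 8 with the trend, 3 with unmoderated variances, and 0 to 5 without 1 array. For IDH1wt against CTL the 3 cytosolic calls became 1 with the 6 arrays, 7 with array weights, 0 with unmoderated variances, and 0 to 2 without 1 array. The single mitochondrial call became 2 above the median level, 0 with centred arrays, the 6 arrays or unmoderated variances, 9 with array weights, and 0 to 2 without 1 array. At an unadjusted p under 0.05 in the limma fit, 5 cytosolic members were higher and 4 lower in IDH1wt against CTL. There 22 mitochondrial members were lower and 1 higher, beside 1556 lower and 1461 higher of all 17731 genes. In IDH1mut against IDH1wt 15 mitochondrial members were lower and 2 higher, beside 2447 lower and 2283 higher of all genes. The filter and the added probe sets change which features are tested, and leaving out arrays the number of samples. The cause of the other shifts was not tested. The share of all genes that passed under each alternative is not given here. Whether members changed more than other genes therefore cannot be read from these counts.

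Same-numbered replicates did not deviate together over all genes (correlations of -0.09 to 0.03). The labels give them no more than a common number, and a shared source or batch that affects some genes was not tested. With the replicate block, calls were 12 cytosolic and 21 mitochondrial in IDH1mut against CTL, 1 and 0 in IDH1wt against CTL, and 7 and 2 in IDH1mut against IDH1wt.

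For single named genes, 43 values no longer passed and 37 newly passed among the other alternatives, as did 120 and 1 without 1 array. Signs turned only for genes that passed in neither setting. With array weights the log2 fold change was 0.08 for Rpl39l in IDH1mut against CTL, and in IDH1mut against IDH1wt 0.01 for Mrpl32, -0.06 for Mrpl15, 0.02 for Mrpl19 and 0.01 for Rps19bp1. Without 1 array, values in IDH1mut against CTL ran from -0.19 to 0.1 for Rpl39l and from -0.04 to 0.02 for Mrps18b. In IDH1wt against CTL they ran from -0.05 to 0.09 for Rps6, from -0.09 to 0.03 for Mrps10 and from -0.08 to 0.02 for Mrps28. In IDH1mut against IDH1wt they ran from -0.06 to 0.04 for Mrpl32, -0.12 to 0.12 for Mrpl15, -0.09 to 0 for Mrpl18, -0.13 to 0.01 for Mrps25, -0.19 to 0.08 for Mrpl19, -0.05 to 0.03 for Rps19bp1 and -0.21 to 0.02 for Mrpl14.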
